A study of Yarrowia lipolytica with 35 samples.

Results

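MIG1 (YALI0E07942g), SNF1 (YALI0D02101g) and TYE7 (YALI0C13178g) are 3 regulators of sugar signalling in the yeast Yarrowia lipolytica. They were chosen by locus tag, by a rule that uses no measured value but was written with earlier results of these data known, and make up 3 of the 7132 genes in the deposited count table. RNA was sequenced from bioreactor cultures of 2 strains, DSM-21175 and DSM-3286, fed glycerol or glucose as the only carbon source. Cultures of either strain were sampled at 32 h, in nitrogen-limited stationary phase, at pH 3.5 and at pH 5.5. Growing cultures were sampled at pH 5.5 only, after 8 h on glycerol and after 12 h on glucose. These conditions form 12 groups of 3 biological replicates, except for DSM-3286 on glucose at 32 h and pH 5.5, which has 2. The labels name neither an engineered allele nor an added agent. Glycerol and glucose cultures in growth phase also differ in the hour of sampling, so carbon source and hour cannot be told apart there.

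In Saccharomyces cerevisiae, Snf1 is the catalytic subunit of a protein kinase of the AMPK family that becomes active when glucose runs low. It phosphorylates Mig1, a zinc finger repressor that otherwise sits on genes for gluconeogenesis and for other carbon sources, and phosphorylated Mig1 leaves the nucleus. Tye7 is a basic helix-loop-helix activator of glycolytic genes in that yeast and in Candida albicans. In Yarrowia lipolytica, loss of SNF1 or of MIG1 is known for raising lipid storage, a trait tied to nitrogen limitation in this oleaginous yeast. Kinase activity and nuclear location are set on the proteins and are not seen in RNA counts. The symbol TYE7 comes from the deposited log2 table, whose TYE7 values match this locus tag and no other; the names MIG1 and SNF1 are published ones that the files do not hold.

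Library totals ran from 6704058 to 25702157 reads with a median of 12546196, and the 3 genes were all among the 6537 that passed the filter on low counts. MIG1 had 121 to 1479 reads in a library, SNF1 had 1038 to 3734 and TYE7 had 25 to 1310. The lowest of these counts, 25 TYE7 reads, has an exact 95% Poisson interval of 16.2 to 36.9 reads, which covers counting error only. In 5 libraries, all of DSM-21175, the log2 profile over all genes correlated less with either replicate of the group than those 2 did with each other, by a margin of over 0.005 in r. They are the libraries numbered 3 of glycerol at 32 h and pH 3.5, of glycerol and of glucose at 32 h and pH 5.5, and of growth on glucose, and the library numbered 2 of growth on glycerol. Results that rest on these libraries are given with and without them, an alternative chosen after the data were seen. Leaving them out keeps 2 libraries in each of those 5 groups. It also takes out libraries picked for lying away from their replicates. The choice itself thus narrows the replicate spread, and adjusted p values without these libraries can be too small. In bulk RNA, fewer cells that express a gene and less RNA per cell cannot be told apart. Statements below that groups overlap or lie apart only describe the libraries, and the share of all genes so separated was not counted.

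Per length, in deposited log2 FPKM values turned back to FPKM (reads scaled to transcript length and library depth), SNF1 RNA was the most abundant of the 3 in 35 of 35 libraries. SNF1 lay between 54.3 and 81.1 FPKM in DSM-21175, with a median of 62.8, and between 39.8 and 86.4 FPKM in DSM-3286, with a median of 65.7. MIG1 ranged over 4.74 to 19.8 FPKM in DSM-21175 with a median of 12.6, and over 8.51 to 44.6 FPKM in DSM-3286 with a median of 20.7. The ratio of SNF1 to MIG1 per length therefore went as low as 1.64 and as high as 12.5 in single libraries. TYE7 covered 1.14 to 51.3 FPKM in DSM-21175 with a median of 6.76, and 5.32 to 12.2 FPKM in DSM-3286 with a median of 9.56. MIG1 stood above TYE7 in 29 libraries. TYE7 stood above MIG1 in the other 6, all of DSM-21175: the 3 growing on glucose, 1 growing on glycerol and 1 on each carbon source at 32 h and pH 5.5.

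**Figure D1:**
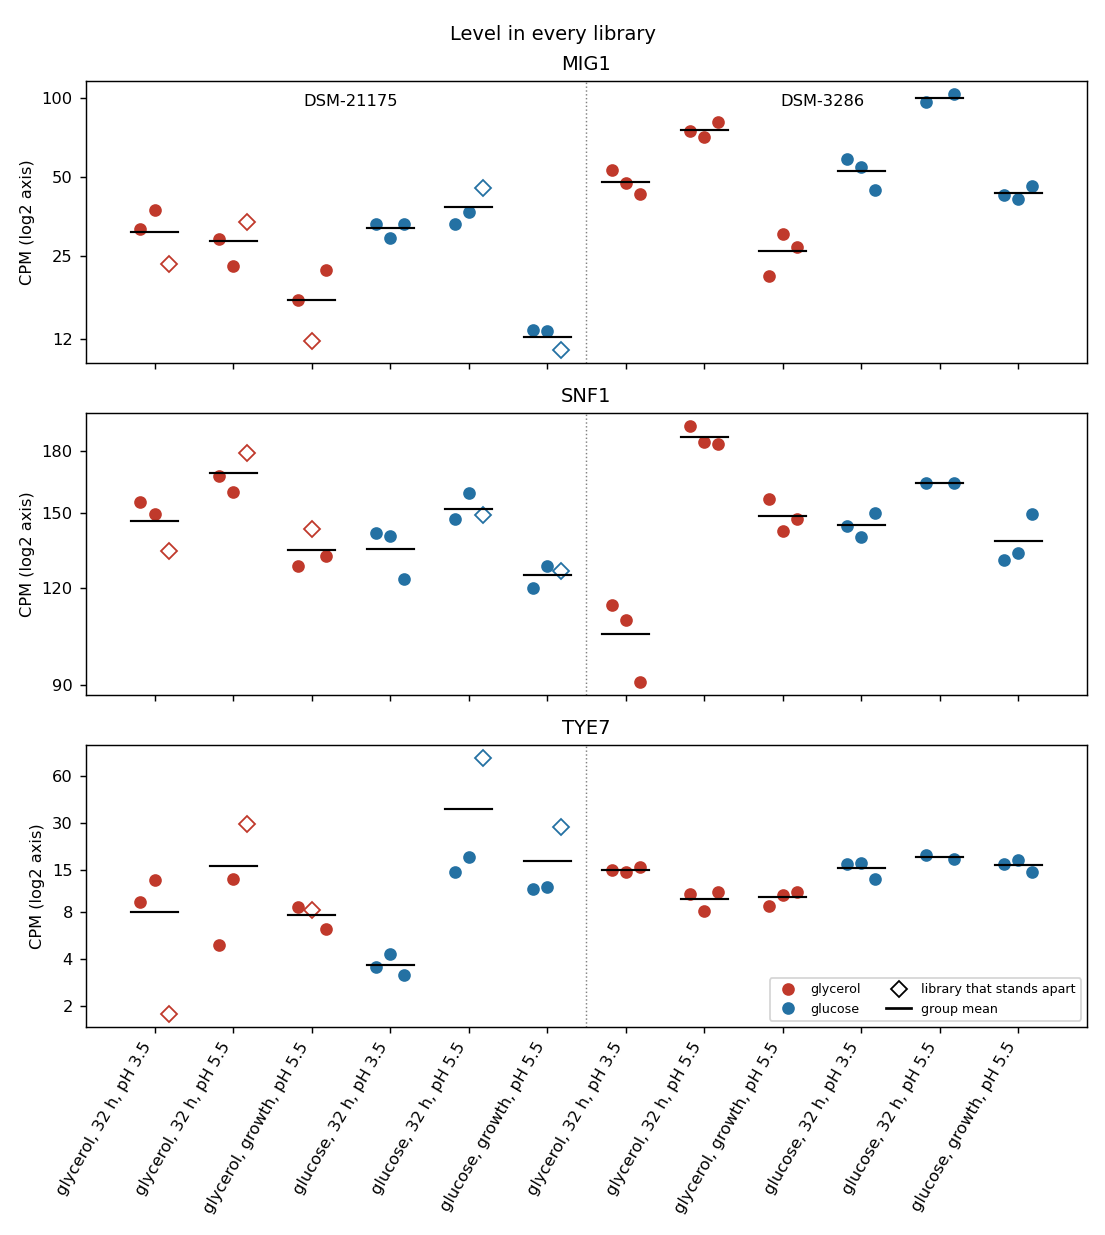
Level of MIG1, SNF1 and TYE7 in CPM (log2 axis) in every library, with DSM-21175 on the left and DSM-3286 on the right of each panel; points are libraries, bars are group means and open diamonds are the 5 libraries that stand apart from their replicates. MIG1 is highest in DSM-3286 at 32 h and pH 5.5, SNF1 stays between 90.7 and 194 CPM, and TYE7 in DSM-21175 spreads over 14.6 to 78.1 CPM within a single group (glucose, 32 h, pH 5.5).

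SNF1, the kinase, was the steadiest of the 3: over all libraries it ranged only from 90.7 to 194 CPM (reads scaled to a common library depth, with TMM factors), with a median of 144 CPM. The group means spanned 0.85 on the log2 scale, and only 7.45% of the genes tested had a smaller span. Its replicates had a pooled SD of 0.09 log2 CPM, and 5.37% of genes had a smaller one, as did 13.3% of the 1159 genes within 0.5 log2 CPM of its level. DSM-3286 on glycerol at 32 h held both ends of the group order, the lowest at pH 3.5 with a mean of 104 ± 12.3 CPM and the highest at pH 5.5 with 188 ± 5.42 CPM (SD, n = 3 each). The next neighbour of either end lay outside its range, whereas neighbours in most of the middle of the order overlapped in their replicate ranges.

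At 32 h and pH 3.5 on glycerol, SNF1 had 155, 149.5 and 134 CPM in DSM-21175, against 114, 109 and 90.7 CPM in DSM-3286. With glucose at that time and pH, it had 141, 139.8 and 123 CPM in DSM-21175, against 144, 139.7 and 149.7 CPM in DSM-3286. The strains were apart on glycerol, with DSM-21175 higher, and overlapped on glucose. On glycerol at 32 h and pH 5.5, SNF1 had 167, 159.7 and 179 CPM in DSM-21175, against 194, 185 and 184 CPM in DSM-3286. On glucose at pH 5.5 and 32 h it had 147, 159 and 149 CPM in DSM-21175, against 164 and 164 CPM in DSM-3286. On either carbon source at pH 5.5, every DSM-21175 library lay below every DSM-3286 library, by a margin that did not pass the test. In growth on glycerol SNF1 had 128, 143 and 132 CPM in DSM-21175, against 156, 142 and 147 CPM in DSM-3286. In growth on glucose it had 119.9, 128 and 126 CPM in DSM-21175, against 130.5, 133 and 149.6 CPM in DSM-3286. Over all growing cultures SNF1 kept to 119.9 to 156 CPM.

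Each comparison below is a log2 fold change from edgeR's quasi-likelihood test fitted to all libraries, given with its SE, averaged over the strata it spans, and passing at a Benjamini-Hochberg adjusted p under 0.05 over the 6537 genes. Many genes pass in these data, so the share that passed is given where a comparison is first used and beside counts of strata. SNF1 was higher at 32 h than in growth at pH 5.5 by 0.30 ± 0.04 (edgeR adjusted p = 1.02e-07), a comparison in which 86.1% of genes passed. The rise passed in each of the 4 strata: 0.33 on glycerol and 0.28 on glucose in DSM-21175, and 0.34 on glycerol and 0.25 on glucose in DSM-3286. All 32 h libraries lay above all growth libraries within each stratum, a description given without the share of all genes so separated. In DSM-3286 on glucose the rise no longer passed without growth replicate 1 (0.21, edgeR adjusted p = 0.0568). In the single strata 76.4% (DSM-21175, glycerol), 72.3% (DSM-21175, glucose), 79.6% (DSM-3286, glycerol) and 71.9% (DSM-3286, glucose) of genes passed.

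SNF1 was lower at pH 3.5 than at pH 5.5 by a log2 fold change of -0.35 ± 0.04 (edgeR adjusted p = 1.8e-08), where 68.5% of genes passed. The stratum furthest from 0 was DSM-3286 on glycerol, at -0.85 ± 0.08 (edgeR adjusted p = 4.68e-10), a level at pH 3.5 that was 0.556 of that at pH 5.5, in a stratum where 66.2% of genes passed. The other 3 strata ran the same way without passing: -0.20 and -0.17 in DSM-21175 on glycerol and on glucose, and -0.18 in DSM-3286 on glucose. Of all genes, 28.7, 27.3 and 46.3% passed there, in that order. In each of the 4 strata the replicate ranges at pH 3.5 and pH 5.5 did not overlap, a description given without the share of all genes of which that holds. For DSM-21175 on glycerol the edgeR adjusted p was 0.0543, with 0.0437 in DESeq2, 0.035 in limma on the deposited log2 values and 0.17 when only the libraries compared were fitted in edgeR. Without the libraries that stand apart that value was -0.09 (edgeR adjusted p = 0.453). The fall with pH differed between strains, by 0.33 ± 0.08 for DSM-21175 minus DSM-3286 (edgeR adjusted p = 0.00237; 41.0% of genes passed this test of the difference).

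Carbon source left the SNF1 average close to 0: 0.11 ± 0.06 for glycerol minus glucose in growth (edgeR adjusted p = 0.104; 62.6% of genes passed) and 0.0014 ± 0.04 at 32 h (edgeR adjusted p = 0.994; 43.2% of genes passed). The average at 32 h held opposite strata. In DSM-21175 the values were 0.12 at pH 3.5, where 15.7% of genes passed, and 0.16 at pH 5.5, where 11.9% did, and neither passed. In DSM-3286 at pH 3.5 SNF1 was lower on glycerol by a log2 fold change of -0.47 ± 0.08 (edgeR adjusted p = 3.22e-05; 42.7% of genes passed), whereas the same strain at pH 5.5 gave 0.20 ± 0.09 (edgeR adjusted p = 0.0878; DESeq2 adjusted p = 0.0397; 35.8% of genes passed). Of the alternatives, only DESeq2 passed that pH 5.5 value. The change with carbon source differed between pH values, by -0.35 ± 0.08 for pH 3.5 minus pH 5.5 (edgeR adjusted p = 0.00344; 19.5% of genes passed). The change at 32 h also differed between strains, by 0.27 ± 0.08 for DSM-21175 minus DSM-3286 (edgeR adjusted p = 0.0126; 31.1% of genes passed).

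Between strains SNF1 averaged -0.03 ± 0.03 for DSM-21175 minus DSM-3286 (edgeR adjusted p = 0.43; 80.4% of genes passed). Only on glycerol at 32 h and pH 3.5 did the strain difference of SNF1 pass, with DSM-21175 higher by 0.49 ± 0.08 (edgeR adjusted p = 6.11e-06; 64.0% of genes passed). The other 5 values ran from -0.16 to -0.10, in strata where 48.9 to 69.7% of genes passed. The largest of those, on glycerol at 32 h and pH 5.5, had an edgeR adjusted p of 0.0835. It passed with RLE scaling (-0.20, edgeR adjusted p = 0.0253), in DESeq2 (-0.20, adjusted p = 0.0183) and without the 5 libraries that stand apart (-0.25, edgeR adjusted p = 0.00874). It did not pass without the filter (edgeR adjusted p = 0.0866), with a replicate block (0.0924), with the compared libraries alone (0.118) or in limma (adjusted p = 0.114).

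MIG1, the repressor, had the clearest pattern of the 3: it was lower in DSM-21175 than in DSM-3286 and higher at 32 h than in growth. Over all libraries it ran from 10.9 to 104 CPM with a median of 33.6 CPM. Its group means spanned 3.02 on the log2 scale, and 74.4% of genes had a smaller span. DSM-3286 at 32 h and pH 5.5 held the top of the order, with 75.7 ± 4.81 CPM on glycerol (SD, n = 3) and 100.4 ± 4.64 CPM on glucose (SD, n = 2). Neither range overlapped that of the next group. From the third to the last place, each group's range overlapped that of its neighbour. Growing DSM-21175 cultures came last, with 17.0 ± 5.14 CPM on glycerol and 12.3 ± 1.18 CPM on glucose (SD, n = 3 each).

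On glycerol at 32 h and pH 3.5, MIG1 had 31.7, 37.5 and 23.2 CPM in DSM-21175, against 53.3, 47.5 and 43.2 CPM in DSM-3286. On glucose at pH 3.5 it had 33.2, 29.2 and 33.0 CPM in DSM-21175, against 58.8, 54.5 and 44.7 CPM in DSM-3286. DSM-21175 was lower on either carbon source, with no overlap. On glycerol at 32 h and pH 5.5 MIG1 had 29.0, 22.8 and 33.6 CPM in DSM-21175, against 74.9, 71.4 and 80.9 CPM in DSM-3286. On glucose at that pH it had 33.1, 36.9 and 45.2 CPM in DSM-21175, against 97.1 and 104 CPM in DSM-3286. The gap between strains was wider here than at pH 3.5. In growth on glycerol MIG1 had 17.0, 11.8 and 22.1 CPM in DSM-21175, against 21.0, 30.2 and 27.1 CPM in DSM-3286. In growth on glucose it had 13.0, 12.9 and 10.9 CPM in DSM-21175, against 42.7, 41.2 and 46.0 CPM in DSM-3286. Growing strains overlapped by a single library on glycerol and were far apart on glucose.

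The averaged strain difference of MIG1 was -1.10 ± 0.07 (edgeR adjusted p = 5.42e-14), a level in DSM-21175 that was 0.466 of that in DSM-3286. It passed in each of the 6 strata. The share of genes that passed was 48.9% and 56.6% in growth on glycerol and glucose, 69.7% and 62.8% on those at 32 h and pH 5.5, and 64.0% and 61.3% at pH 3.5. The widest was growth on glucose, at -1.82 ± 0.19 (edgeR adjusted p = 3.66e-09), and at 32 h and pH 5.5 the values were -1.41 on glycerol and -1.39 on glucose. At 32 h and pH 3.5 they were -0.64 on glycerol and -0.72 on glucose. The narrowest was growth on glycerol, at -0.63 ± 0.19 (edgeR adjusted p = 0.00635). It did not pass when only the libraries compared were fitted (-0.62, edgeR adjusted p = 0.0746) or without DSM-21175 replicate 2 (-0.42, edgeR adjusted p = 0.0779). Without the 5 libraries that stand apart it was -0.39 (edgeR adjusted p = 0.037), and the average over the 6 strata was -1.09.

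MIG1 was higher at 32 h than in growth at pH 5.5 by 1.29 ± 0.09 (edgeR adjusted p = 1.15e-13), 2.44 times the growth level. The rise passed in all 4 strata, in which 71.9 to 79.6% of all genes passed (86.1% in the average). No 32 h library overlapped a growth library of its stratum, a separation that was not counted over all genes. The rise was 0.76 ± 0.19 on glycerol and 1.64 ± 0.19 on glucose in DSM-21175, and 1.54 ± 0.18 on glycerol and 1.21 ± 0.19 on glucose in DSM-3286. The value for DSM-21175 on glycerol became 0.38 (edgeR adjusted p = 0.0387) without the libraries that stand apart. The rise differed between strains by -0.18 ± 0.19 for DSM-21175 minus DSM-3286, which did not pass with all libraries (edgeR adjusted p = 0.438; 58.2% of genes passed) and passed without those libraries (-0.52, edgeR adjusted p = 0.00312).

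MIG1 was lower at pH 3.5 by -0.44 ± 0.09 on average (edgeR adjusted p = 9.3e-05; 68.5% of genes passed), and the single strata that passed were those of DSM-3286. In DSM-21175 the values were 0.11 ± 0.18 on glycerol (edgeR adjusted p = 0.674; 28.7% of genes passed) and -0.27 ± 0.17 on glucose (edgeR adjusted p = 0.258; 27.3% of genes passed), with overlapping libraries in either case. In DSM-3286 they were -0.66 ± 0.17 on glycerol (edgeR adjusted p = 0.00159; 66.2% of genes passed) and -0.94 ± 0.19 on glucose (edgeR adjusted p = 0.000204; 46.3% of genes passed in that stratum), with no overlap between pH values. The change with pH differed between strains by 0.72 ± 0.18 for DSM-21175 minus DSM-3286 (edgeR adjusted p = 0.00217). Without the libraries that stand apart the difference was 0.95 (edgeR adjusted p = 1.2e-06), and DSM-21175 on glycerol rose at pH 3.5 by 0.42 (edgeR adjusted p = 0.0284). In that stratum the omission takes out the highest MIG1 library at pH 5.5 (33.6 CPM) and the lowest at pH 3.5 (23.2 CPM).

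For carbon source, the values of MIG1 had opposite signs in the growing strains. DSM-21175 gave 0.45 ± 0.19 (edgeR adjusted p = 0.057; 46.6% of genes passed), which passed without the libraries that stand apart (0.57, edgeR adjusted p = 0.00907) and without glycerol replicate 2 alone (0.67, edgeR adjusted p = 0.00599). Both omissions take out glycerol replicate 2, the lowest glycerol library (11.8 CPM), which lies within the glucose range. Under the other alternatives the value did not pass, with 0.32 in limma (adjusted p = 0.131) and 0.45 with the compared libraries alone (edgeR adjusted p = 0.211). In DSM-3286 MIG1 was lower on glycerol by -0.73 ± 0.18 (edgeR adjusted p = 0.000921; 55.3% of genes passed), a level 0.602 of that on glucose, without overlap. The difference between strains was 1.18 ± 0.26 for DSM-21175 minus DSM-3286 (edgeR adjusted p = 0.00283), a test that 9.82% of genes passed. The average over strains in growth was -0.14 ± 0.13 (edgeR adjusted p = 0.362). At 32 h MIG1 was lower on glycerol by -0.25 ± 0.09 on average (edgeR adjusted p = 0.0223; 43.2% of genes passed), and none of the 4 single strata passed with all libraries. Their values were -0.05 at pH 3.5 and -0.43 at pH 5.5 in DSM-21175, and -0.13 at pH 3.5 and -0.41 at pH 5.5 in DSM-3286. Of all genes, 11.9 to 42.7% passed in these strata. At pH 5.5 in DSM-3286 the glycerol libraries all lay below the glucose ones. Without the libraries that stand apart both pH 5.5 strata passed, at -0.45 in DSM-21175 (edgeR adjusted p = 0.0408) and -0.41 in DSM-3286 (edgeR adjusted p = 0.0101). When only the libraries compared were fitted, the DSM-3286 stratum passed (-0.41, edgeR adjusted p = 0.00485) and the DSM-21175 stratum did not (-0.44, edgeR adjusted p = 0.293). With RLE scaling, no filter, a replicate block, limma or DESeq2, neither stratum passed. The carbon change at 32 h differed between pH values by 0.33 ± 0.18 for pH 3.5 minus pH 5.5 (edgeR adjusted p = 0.204), and by 0.42 without the libraries that stand apart (edgeR adjusted p = 0.0187). The carbon change at pH 5.5 differed between phases by -0.28 ± 0.18 for 32 h minus growth, which did not pass (edgeR adjusted p = 0.218; 49.0% of genes passed).

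**Figure D2:**
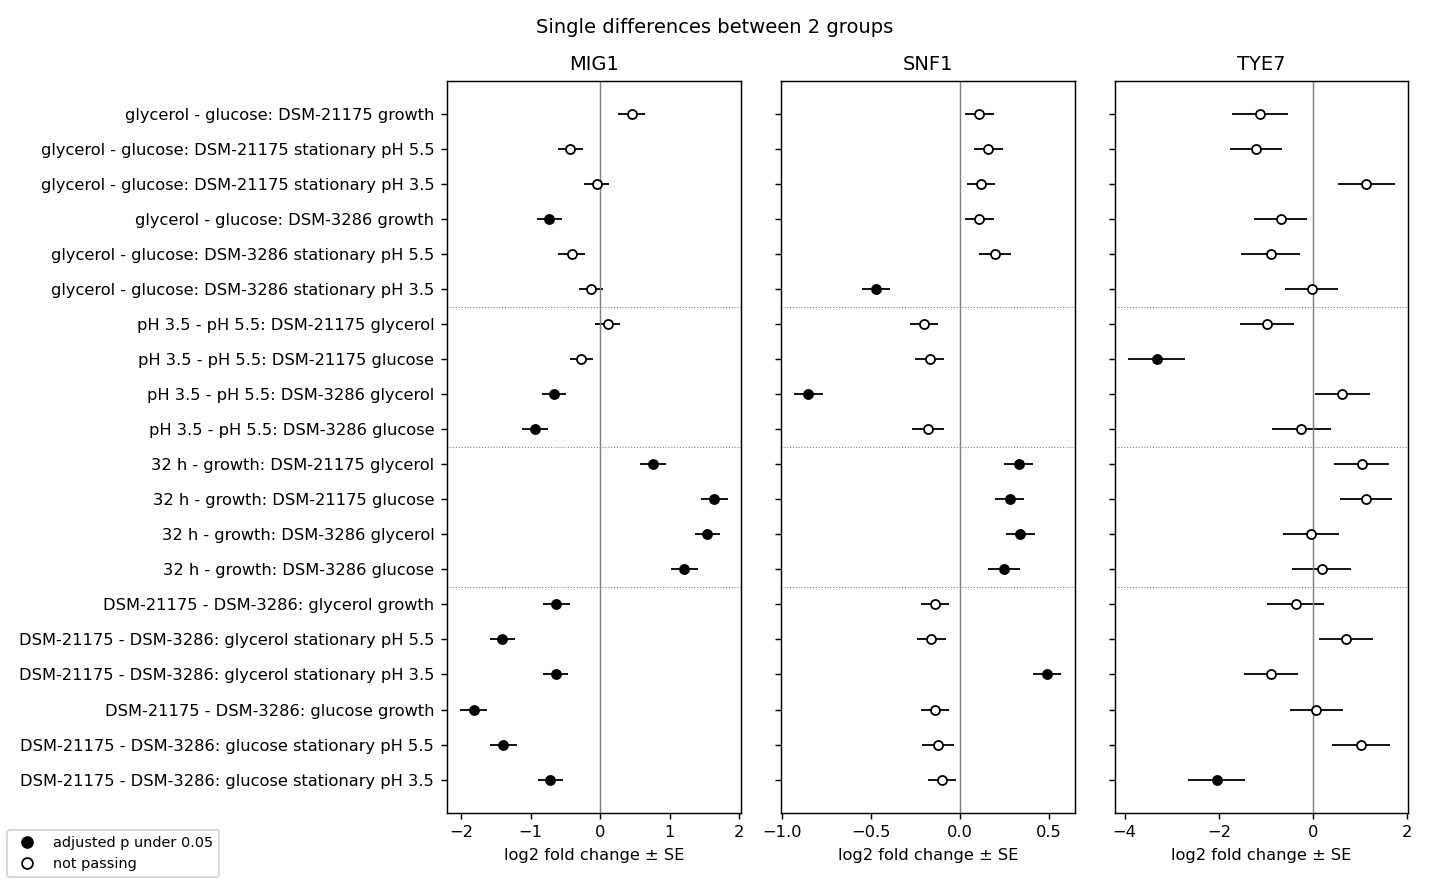
Log2 fold change ± SE of MIG1, SNF1 and TYE7 in the 20 single differences between 2 groups, from the edgeR fit to all libraries; filled points have an adjusted p under 0.05. MIG1 is below 0 in all 6 strain differences and above 0 in all 4 differences with phase, SNF1 is furthest from 0 for pH in DSM-3286 on glycerol (-0.85), and the SE of TYE7 is wide in each of the 20.

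TYE7, the activator of glycolytic genes in other yeasts, varied widely among replicates in most DSM-21175 groups and little among those of DSM-3286. In DSM-21175 it varied little in growth on glycerol (SD 1.33 CPM) and on glucose at 32 h and pH 3.5 (SD 0.577 CPM). Over all libraries it ran from 1.78 to 78.1 CPM, with a median of 13.0 CPM. In DSM-3286 it stayed between 8.15 and 18.8 CPM, so that both extremes fell in DSM-21175. DSM-21175 on glucose at 32 h held both ends of the group order, the lowest at pH 3.5 with 3.69 ± 0.577 CPM and the highest at pH 5.5 with 37.0 ± 35.6 CPM (SD, n = 3 each). The lowest group lay clear of its neighbour, DSM-3286 on glycerol at pH 3.5 lay clear of the next lower group, and the other neighbours overlapped. Its replicates had a pooled SD of 0.741 log2 CPM, and 96.8% of genes had a smaller one, as did 96.5% of the 315 genes within 0.5 log2 CPM of its level. MIG1 and SNF1 had replicate SDs of 0.236 and 0.09 log2 CPM. Among the genes within 0.5 log2 CPM of their own levels, 84.7% and 13.3% had a smaller SD.

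In DSM-21175 at 32 h and pH 5.5, TYE7 had 4.95, 13.1 and 29.6 CPM on glycerol, against 14.6, 18.2 and 78.1 CPM on glucose. The highest value of either group was in replicate 3, a library that stands apart. At 32 h and pH 3.5 that strain had 9.38, 13.0 and 1.78 CPM on glycerol, against 3.55, 4.33 and 3.20 CPM on glucose. Replicate 3 on glycerol was the lowest of its group here, and the other 2 lay above all glucose libraries. In growth DSM-21175 had 8.69, 8.35 and 6.23 CPM on glycerol, against 11.3, 11.7 and 28.1 CPM on glucose, and the carbon sources did not overlap. Set against the mean of the other replicates on the log2 scale, TYE7 in the libraries that stand apart was 2.25 higher on glucose at 32 h and pH 5.5, 1.85 higher on glycerol there, 1.28 higher in growth on glucose, 0.18 higher in growth on glycerol and -2.53 on glycerol at 32 h and pH 3.5. At least as large a deviation was shown by 1.27, 1.36, 4.47, 54.7 and 0.413% of genes in those libraries, in that order.

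**Figure D3:**
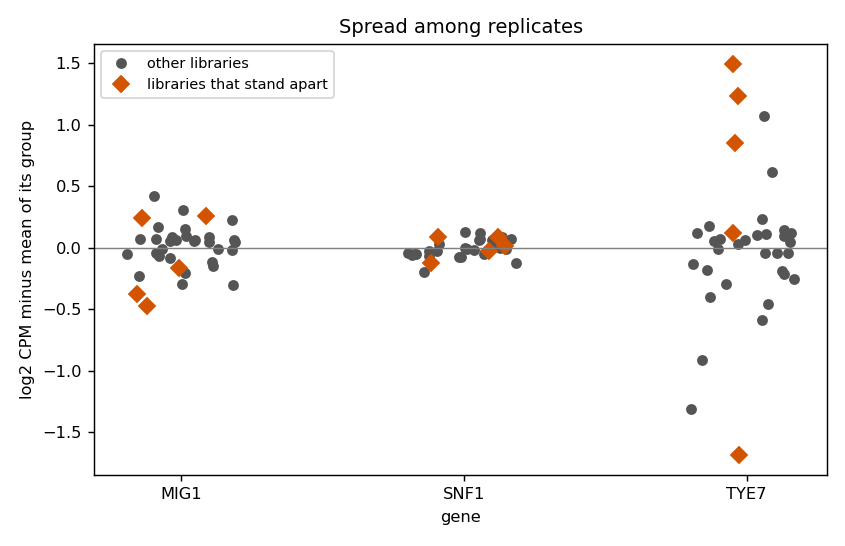
Each library's log2 CPM minus the mean of its group for MIG1, SNF1 and TYE7; diamonds are the 5 libraries of DSM-21175 that stand apart from their replicates. The pooled SD among replicates is 0.741 for TYE7, 0.236 for MIG1 and 0.09 for SNF1, and 4 of the 5 diamonds of TYE7 lie far from 0. TYE7 also lies far from 0 in DSM-21175 libraries that do not stand apart. It is at -1.308 in replicate 1 on glycerol at 32 h and pH 5.5, and at 1.074 in replicate 2 on glycerol at 32 h and pH 3.5. The mean of each of these groups includes its diamond.

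In DSM-3286 the TYE7 replicates were close together. At 32 h and pH 3.5 it had 14.9, 14.6 and 15.6 CPM on glycerol, against 16.4, 16.7 and 13.2 CPM on glucose. At 32 h and pH 5.5 it had 10.5, 8.15 and 10.8 CPM on glycerol, against 18.8 and 17.7 CPM on glucose. In growth it had 8.75, 10.4 and 10.8 CPM on glycerol, against 16.4, 17.4 and 14.6 CPM on glucose. At pH 5.5, growing or at 32 h, every glycerol library of this strain was below every glucose library, and at pH 3.5 the carbon sources overlapped.

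The fit to all libraries uses 1 spread per gene over the 12 groups, so the DSM-3286 differences of TYE7 carry the spread of the DSM-21175 replicates. With that spread, glycerol minus glucose in DSM-3286 was -0.69 ± 0.57 in growth (edgeR adjusted p = 0.321) and -0.90 ± 0.63 at 32 h and pH 5.5 (edgeR adjusted p = 0.284). When only the libraries compared were fitted, the values were -0.71 (edgeR adjusted p = 0.00027) and -0.90 (edgeR adjusted p = 0.00864). Without the 5 libraries that stand apart they were -0.72 (edgeR adjusted p = 0.00407) and -0.91 (edgeR adjusted p = 0.00225). The call thus turned on which libraries entered the fit, while the size hardly moved. In growth the average over strains was -0.91 ± 0.41 (edgeR adjusted p = 0.058) and -0.68 without the libraries that stand apart (edgeR adjusted p = 0.00132). The average at 32 h was -0.26 ± 0.29 (edgeR adjusted p = 0.508), over strata of unlike sign: 1.13 and -1.22 in DSM-21175 at pH 3.5 and pH 5.5, and -0.03 and -0.90 in DSM-3286 at those pH values. None of the 4 passed with all libraries, in strata where 11.9 to 42.7% of genes passed. Without the libraries that stand apart the DSM-21175 values were 1.58 at pH 3.5 (edgeR adjusted p = 1.03e-05) and -0.87 at pH 5.5 (edgeR adjusted p = 0.0162). Single libraries decided their size: the pH 5.5 value was -0.05 (edgeR adjusted p = 0.969) without glucose replicate 3 and -2.05 (edgeR adjusted p = 0.0308) without glycerol replicate 3, and the pH 3.5 value ranged over 0.62 to 1.59, the highest without glycerol replicate 3 (edgeR adjusted p = 0.0488). The change with carbon source differed between pH values by 1.61 ± 0.59 for pH 3.5 minus pH 5.5 (edgeR adjusted p = 0.0556), and by 1.66 without those libraries (edgeR adjusted p = 3.38e-06).

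TYE7 was lower at pH 3.5 than at pH 5.5 by -0.98 ± 0.29 on average (edgeR adjusted p = 0.00485). The only stratum that passed was DSM-21175 on glucose, at -3.32 ± 0.61 (edgeR adjusted p = 0.000369; 27.3% of genes passed), a level at pH 3.5 that was 0.1 of that at pH 5.5. The libraries there did not overlap, the highest at pH 3.5 being 4.33 CPM and the lowest at pH 5.5 being 14.6 CPM. Without replicate 3 at pH 5.5 the change was -2.14 (edgeR adjusted p = 0.00574). The other strata gave -0.98 ± 0.57 in DSM-21175 on glycerol, 0.62 ± 0.58 in DSM-3286 on glycerol and -0.25 ± 0.62 in DSM-3286 on glucose. Of all genes, 28.7, 66.2 and 46.3% passed there, in that order. In DSM-3286 on glycerol each library at pH 3.5 was above each at pH 5.5, and the rise passed when only the libraries compared were fitted (0.62, edgeR adjusted p = 0.00695) and without the libraries that stand apart (0.62, edgeR adjusted p = 0.0139). Without the libraries that stand apart the averaged pH change was -0.37 (edgeR adjusted p = 0.00675) and DSM-21175 on glycerol turned to 0.30 (edgeR adjusted p = 0.375). The pH change differed between strains by -2.33 ± 0.60 for DSM-21175 minus DSM-3286 (edgeR adjusted p = 0.00309), and by -1.10 without those libraries (edgeR adjusted p = 0.000326).

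Between strains, TYE7 was lower in DSM-21175 on glucose at 32 h and pH 3.5 by -2.05 ± 0.61 (edgeR adjusted p = 0.00499; 61.3% of genes passed), a level 0.241 of that in DSM-3286. Here all 3 DSM-21175 libraries were below 5 CPM and all 3 DSM-3286 libraries above 13 CPM, and none of the 6 stands apart. The other 5 strata ran from -0.89 to 1.02 and did not pass, where 48.9 to 69.7% of genes passed. On glycerol, in growth and at 32 h and pH 3.5, the DSM-21175 libraries lay below all DSM-3286 ones. In growth the gap was only 8.69 against 8.75 CPM, and the share of all genes so separated was not counted. The averaged strain difference of TYE7 was -0.25 ± 0.24 (edgeR adjusted p = 0.331), and -0.63 without the libraries that stand apart (edgeR adjusted p = 1.22e-06). With phase TYE7 gave 0.57 ± 0.29 for 32 h minus growth (edgeR adjusted p = 0.0702; DESeq2 adjusted p = 0.0437) and 0.23 without the libraries that stand apart (edgeR adjusted p = 0.0809). None of the 4 strata passed: they gave 1.03 on glycerol and 1.12 on glucose in DSM-21175, and -0.04 on glycerol and 0.18 on glucose in DSM-3286. Of all genes, 71.9 to 79.6% passed in those strata. The DSM-21175 values turned on single libraries. On glycerol the value was 0.19 (edgeR adjusted p = 0.79) without replicate 3 at 32 h and 1.43 (edgeR adjusted p = 0.0293) without replicate 1 at 32 h. On glucose it was -0.09 (edgeR adjusted p = 0.88) without replicate 3 at 32 h and 1.68 (edgeR adjusted p = 0.0195) without replicate 3 in growth. Both were smaller without the libraries that stand apart, at 0.25 and 0.48, and neither passed.

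Across the 12 group means of log2 CPM, the 3 genes did not share a common course. Pearson's r was 0.41 for MIG1 and SNF1, 0.26 for MIG1 and TYE7 and 0.02 for SNF1 and TYE7, a description over groups that share strain, carbon source, phase and pH. The genes most like MIG1 over those groups were YALI0D24079g (r = 0.975), YALI0B03498g (r = 0.97) and YALI0E17677g (r = 0.959). Among genes with a symbol in the deposited table they were SFL1 (r = 0.923), a repressor of cell-surface genes in Saccharomyces cerevisiae, and USV1 (r = 0.911), a zinc finger factor tied to growth on non-fermentable carbon in that yeast. For SNF1 they were YALI0D17204g (r = 0.918), YALI0E23265g (r = 0.904) and YALI0E09042g (r = 0.901), and among genes with a symbol RIM101 (r = 0.719), the factor of the alkaline pH response, and GZF2 (r = 0.654). For TYE7 likeness was weaker, with YALI0F30107g (r = 0.69), YALI0D23903g (r = 0.664) and YALI0D00473g (r = 0.622), and SEF1 (r = 0.552) and ERT1 (r = 0.527) among genes with a symbol.

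Genes of carbon use and its control were set beside MIG1, SNF1 and TYE7 in 4 lists. They hold 11 glycolytic genes, 4 hexose transporters, and 6 genes for gluconeogenesis, the glyoxylate cycle and acetate use. A further 9 are other regulators of carbon use with a symbol in the deposited table, not picked as targets of the members. The 6 genes are called glucose-repressed after other yeasts, a label that was not checked for each gene, ACS2 among them. The tags of the glycolysis, glucose-repressed and transporter lists come from memory of published names and could not be checked in the files. Many genes pass in each comparison, so each count is given beside the share of all genes that passed in that direction.

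**Figure D4:**
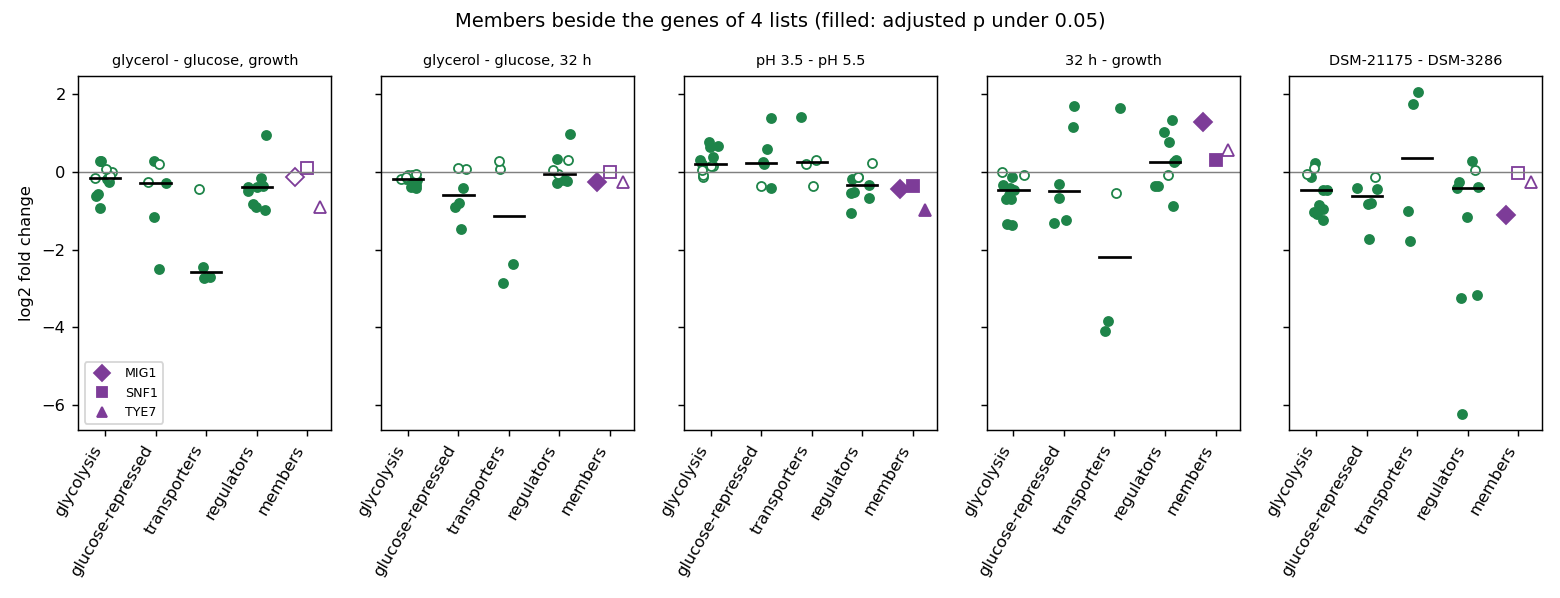
Log2 fold change of MIG1, SNF1 and TYE7 (purple) and of the genes of 4 lists (green, with the median as a bar) in the 5 averaged comparisons; filled symbols have an edgeR adjusted p under 0.05. MIG1 stands highest of the 3 for 32 h minus growth (1.29) and lowest for DSM-21175 minus DSM-3286 (-1.10), where the glycolysis median is -0.46 in either comparison.

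For 32 h minus growth, where MIG1 and SNF1 rose and TYE7 did not pass, 0 glycolytic genes were higher and 9 of 11 lower, beside 42.9% and 43.2% of all genes. The falls reached -1.37 for PYK1 (pyruvate kinase) and -1.35 for ENO1 (enolase), and the list's median was -0.46 beside 0.01 for all genes tested. Of the glucose-repressed genes, 2 were higher and 4 lower: the malate synthases MLS2 (1.70) and MLS1 (1.15) rose, and ACS2 (acetyl-CoA synthetase, -1.32) and FBP1 (fructose-1,6-bisphosphatase, -1.23) fell. Among the hexose transporters YHT3 was higher (1.64), and YHT4 (-4.09) and YHT1 (-3.83) were lower. Of the other regulators 5 were higher and 3 lower, led by USV1 (1.33) and NRG1 (1.04), a repressor of glucose-repressed genes in Saccharomyces cerevisiae, and by AZF1 (-0.87) and TUP1 (-0.37), the corepressor that Mig1 recruits in that yeast.

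For DSM-21175 minus DSM-3286, where MIG1 fell and SNF1 and TYE7 did not pass, 1 glycolytic gene was higher and 8 of 11 were lower, beside 43.0% and 37.5% of all genes. FBA1 (aldolase) was higher by 0.24, and TDH1 (glyceraldehyde-3-phosphate dehydrogenase, -1.24) and PGK1 (phosphoglycerate kinase, -1.08) fell most. None of the glucose-repressed genes was higher and 5 of 6 were lower, with PCK1 (phosphoenolpyruvate carboxykinase) at -1.72 and MLS2 at -0.82, and a median of -0.62 beside 0.03 for all genes. The transporters split, with YHT2 (2.06 ± 0.69) and YHT3 (1.75) higher and YHT1 (-1.77) and YHT4 (-1.01) lower. YHT2 was poorly estimated, with an SE of 1249.49 for 32 h minus growth. Of the other regulators 1 was higher, CAT8 (0.28), and 7 of 9 were lower, AZF1 by -6.24 and MSN4 by -3.24.

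For pH 3.5 minus pH 5.5, where the averages of MIG1, SNF1 and TYE7 all fell, 6 of 11 glycolytic genes were higher and 0 lower, beside 34.2% and 34.3% of all genes. PGK1 (0.78) and TPI1 (triose phosphate isomerase, 0.66) rose most, and the median was 0.21 beside -0.01 for all genes. Of the glucose-repressed genes 4 of 6 were higher, PCK1 by 1.38 and FBP1 by 0.59, and ACS2 was lower (-0.42). Of the transporters only YHT4 passed (1.41). Of the other regulators 0 were higher and 7 of 9 were lower, with USV1 (-1.07) and RDS2 (-0.67) furthest, and a median of -0.34.

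For glycerol minus glucose in growth, where none of the 3 regulators passed on average, 2 glycolytic genes were higher and 5 lower, beside 31.8% and 30.7% of all genes. GPM1 (phosphoglycerate mutase, 0.29) and GLK1 (glucokinase, 0.27) were higher, and HXK1 (hexokinase, -0.93) and PFK1 (phosphofructokinase, -0.61) lower. FBP1 was the only glucose-repressed gene that was higher on glycerol (0.28), and 3 of 6 were lower, among them MLS2 (-2.49) and MLS1 (-1.17). The transporters had 0 higher and 3 of 4 lower, with YHT2 at -2.73 ± 1.14 (edgeR adjusted p = 0.0401) and YHT1 at -2.70. AZF1 alone of the other regulators was higher (0.94), and 8 of 9 were lower, with NRG1 (-0.98) and USV1 (-0.91) furthest.

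For glycerol minus glucose at 32 h, where MIG1 fell slightly, 0 glycolytic genes were higher and 6 of 11 lower, beside 22.2% and 21.0% of all genes. GLK1 (-0.41) and FBA1 (-0.38) fell most. The glucose-repressed genes had 0 higher and 4 of 6 lower on glycerol, PCK1 by -1.46 and MLS2 by -0.90. The transporters had 0 higher and 2 of 4 lower, YHT1 by -2.85 and YHT4 by -2.36. Of the other regulators AZF1 (0.98) and MSN4 (0.33) were higher and 4 of 9 were lower, among them ERT1 (-0.29) and CAT8 (-0.24), regulators of gluconeogenic genes in Saccharomyces cerevisiae.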

How the data were processed

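RNA-seq of 35 libraries was analysed from a table of raw read counts per gene and a table of log2 FPKM values, both deposited by the authors. Per the labels' protocols, libraries were strand-specific and poly(A)-selected. BWA 0.7.12-r1039, featureCounts 1.5.1 and edgeR are named, per the submitters' processing notes; which build and which strand setting were used is not given in the sources used here. The deposited log2 values matched log2(FPKM + 1) from the counts and effective lengths within 0.02 for 99.9% of values. The 71 symbols of that table were paired with locus tags by value (for TYE7 within 0.005).

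Counts were fitted with edgeR 4.0.16 in R 4.3.3 (filterByExpr, TMM, robust quasi-likelihood, 12 group means, 23 residual degrees of freedom), which left 6537 genes, with Benjamini-Hochberg adjustment over all of them. Of 31 contrasts, 5 are averages over strata, 20 single differences and 6 differences of changes. SE is the log2 fold change divided by the root of F. Alternatives were RLE scaling, no filter, DESeq2 1.42.0, limma 3.58.1 on the deposited log2 values with genes as fitted above, the compared libraries alone, a replicate block, leaving out each library, and leaving out libraries whose r with both replicates was over 0.005 below theirs. The fit was tested on simulated counts. All replicate pairs differed beyond sampling noise (chi-square per gene of at least 3.37). Named list genes are up to 2 with the largest rise and 2 with the largest fall per list and comparison; likeness uses genes with a mean log2 CPM of 3 or more. The rule for the members uses no measured value, but members and lists were chosen with earlier results of these data known. No reference sequence was used.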

Additional observations from a re-analysis of the deposited data

Results flagged for a closer look

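In 6 of 18 tests the change of a member differed between conditions by edgeR's test of the difference itself. The 6 contrasts of this kind were passed by 9.82 to 58.2% of all genes tested, so a count of this size is near the background and is no result about the members. For SNF1, the glycerol-minus-glucose change at 32 h was lower at pH 3.5 than at pH 5.5 by a log2 difference of -0.35 (edgeR adjusted p = 0.00344). It was higher in DSM-21175 than in DSM-3286 by 0.27 (edgeR adjusted p = 0.0126), and the SNF1 change with pH differed between the strains by 0.33 (edgeR adjusted p = 0.00237). All 3 contrasts include the group of DSM-3286 on glycerol at pH 3.5, with 114, 109 and 90.7 CPM. For MIG1, the strains differed in the change with carbon source in growth by 1.18 (edgeR adjusted p = 0.00283) and in the change with pH by 0.72 (edgeR adjusted p = 0.00217). For TYE7, the strains differed in the change with pH by -2.33 (edgeR adjusted p = 0.00309), or by -1.73 (edgeR adjusted p = 0.00719) without replicate 3 of DSM-21175 on glucose at 32 h and pH 5.5. No group has 4 or more libraries, so no single library was tested for standing out within its group.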

How the results depend on the processing

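MIG1 kept its direction and call in all 5 averaged comparisons, and SNF1 in the averages for pH, phase and strain, under each alternative run. The replicate numbers showed no general pairing of the libraries. In deviations from group means, r of same-number libraries was -0.493 to 0.446 over 187 pairs, with a median of 0.001, beside 0.003 for different numbers. It was over 0.1 in 20 of the pairs. Pairing in only part of the design, such as among the DSM-21175 libraries numbered 3, was not tested. The replicate block changed no averaged call (TYE7 pH -0.90, edgeR adjusted p = 0.011; TYE7 in growth -0.88). SNF1 with carbon source at 32 h stayed near 0 and turned to -0.00074 with RLE scaling, -0.0013 without the filter, -0.0048 with the compared libraries alone, -0.01 in limma, -0.0017 in DESeq2 and -0.0045 without the libraries that stand apart, and ranged over -0.02 to 0.02 without single libraries. In growth it ranged over 0.08 to 0.14 without single libraries and passed without DSM-3286 glucose replicate 3 (0.14). TYE7 with carbon source in growth passed at -0.96 (RLE), -0.97 (no filter), -0.97 (compared libraries), -0.82 (limma), -0.96 (DESeq2), -0.68 (without the libraries that stand apart) and ranged over -1.02 to -0.62 without single libraries, passing without DSM-21175 glucose replicate 1 or 2. TYE7 with carbon source at 32 h ranged over -0.47 to 0.03, the last without DSM-21175 glucose replicate 3 at pH 5.5. TYE7 with phase passed at 0.61 in DESeq2 and ranged over 0.28 to 0.71 without single libraries, passing without any of DSM-21175 growth glucose replicate 3 and, at 32 h and pH 5.5, glycerol replicate 1 and glucose replicates 1 and 2. TYE7 between strains passed at -0.63 without the libraries that stand apart and ranged over -0.47 to -0.18 without single libraries, passing without DSM-21175 glucose replicate 3 at 32 h and pH 5.5.

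Values that did not pass in the fit to all libraries and changed sign were these. For MIG1: carbon source in DSM-21175 at pH 3.5 (0.11 without the libraries that stand apart, -0.22 to 0.12 without single ones), pH in DSM-21175 on glycerol (-0.04 to 0.28 without single libraries) and the strain difference of the carbon change at 32 h (-0.06 to 0.11). For SNF1: the strain difference of the carbon change in growth (-0.02 without the libraries that stand apart, -0.06 to 0.04 without single ones) and of the phase change (-0.04 RLE, -0.01 no filter, -0.01 limma, -0.04 DESeq2, -0.05 without the libraries that stand apart, -0.08 to 0.03 without single ones). For TYE7: phase in DSM-3286 on glycerol (0.07 RLE, 0.04 no filter, 0.05 limma, 0.08 DESeq2, 0.01 without the libraries that stand apart, -0.12 to 0.09 without single ones), carbon source in DSM-3286 at pH 3.5 (-0.14 to 0.03), phase in DSM-21175 on glucose (-0.09 to 1.68), and the carbon change by phase (-0.54 to 0.46) and by strain in growth (-0.66 to 0.12). Without the libraries that stand apart TYE7 also turned for pH in DSM-21175 on glycerol (0.30), between strains on glycerol at 32 h and pH 5.5 (-0.16; -0.16 to 1.08 without single libraries), in growth on glucose (-0.48; limma -0.02; -0.49 to 0.30) and on glucose at 32 h and pH 5.5 (-0.20; -0.20 to 1.36), and for the carbon change by strain in growth (0.08). The cause was not tested. List counts that moved by over 1.5 times with all groups complete, or without the libraries that stand apart, were counts of 0 to 2 genes: glycolytic genes lower at pH 3.5 (1) and higher in DSM-21175 (2), glucose-repressed genes higher on glycerol in growth (0 to 2), and transporters higher (2) or lower (1) at pH 3.5; leaving out single libraries moved 12 more, none above 2 genes. At 25 reads, the lowest TYE7 count, counting error is large, but that library's total of 13475331 reads is above the median, and its replicates had 173 and 194 TYE7 reads.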

Other observations

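In the 5 libraries of DSM-21175 that stand apart, the median shift of the hexose transporters against the other replicates of the group was 1.13 on glucose at 32 h and pH 5.5, 0.45 on glycerol at 32 h and pH 5.5, 0.36 in growth on glucose, 0.01 in growth on glycerol and -0.34 on glycerol at 32 h and pH 3.5. These are log2 differences over 4 genes, among them the poorly estimated YHT2, beside medians of -0.01 to 0.06 over all genes tested. TYE7 shifted in those libraries, in the same order, by 2.25, 1.85, 1.28, 0.18 and -2.53. The glucose-repressed genes shifted by 0.70, 0.21, -0.16, -0.55 and -0.45. The glycolytic genes shifted by -0.05, -0.11, -0.45, -0.17 and -0.01, and the other regulators by -0.07, 0.17, -0.12, -0.06 and -0.16. SNF1 moved by at most 0.19 in size in any of the 5 (-0.19 on glycerol at 32 h and pH 3.5), and MIG1 by 0.37, 0.38, -0.24, -0.71 and -0.57. Each library is a single sample, picked for lying away from its replicates, and these shifts were not tested.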
